A study of Mus musculus with 144 samples.

Results

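The genes for 10 transporters of the hepatocyte plasma membrane were followed through 120 h of culture with and without the dioxin TCDD (2,3,7,8-tetrachlorodibenzo-p-dioxin). They were taken by name, 10 of the 55359 genes in the count files, and all 10 were found. The 5 uptake members are Slc10a1, Slco1a1, Slco1a4, Slco1b2 and Slco2b1, and the 5 efflux members are Abcb1a, Abcb4, Abcb11, Abcc2 and Abcc3. Primary hepatocytes came from 28-day-old male mice, either C57BL/6NCrl animals labelled WT or a homozygous CRISPR line labelled PkmΔDRE, which lacks an intronic dioxin response element (DRE, core GCGTG) of the pyruvate kinase gene Pkm. After attachment, cells of each label received 10 nM TCDD or the solvent DMSO (vehicle) for 1 of 9 durations (2, 4, 8 or 12 h, or a multiple of 24 h up to 120 h), in medium with 100 nM dexamethasone in every group. This gave 36 groups of 4 RNA-Seq libraries, with 13588848 to 30719161 read pairs on genes per library (median 18011825). The libraries of a group are called replicates 1 to 4 in the order of deposition, which only names them. The labels do not say which libraries of a group came from separate animals or isolations, so the p-values below measure the spread between these libraries, which may be technical.

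Hepatocytes take bile acids, bilirubin and drugs from portal blood across their sinusoidal membrane and pass them, often after conjugation, into the bile canaliculus. Uptake uses sodium-dependent and organic anion carriers of the solute carrier families, and export uses ATP-driven pumps of the ABC family. In culture, hepatocytes are known to lose much of this polarised machinery. TCDD binds the aryl hydrocarbon receptor (AhR), which acts through DREs.

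Several facts about the libraries bear on the values. Cyp1a1, the classical AhR target, was 1651 to 4144 CPM (read-pair counts scaled to the effective library size) in the WT TCDD libraries at 8 h against 0.977 to 4.06 CPM in vehicle. It went against the treatment label in 4 libraries labelled WT. Vehicle replicate 1 of 48 h held 3285 CPM of Cyp1a1 and vehicle replicate 3 of 96 h held 1717 CPM, while TCDD replicate 4 held 1.15 CPM at 2 h and 29.2 CPM at 72 h. Leaving out any 1 of these 4 changed 1 member call with TCDD at its own hour, given below for 96 h. Averaged over the 9 hours, Pkm itself had a value of −0.26 (log2, edgeR adjusted p = 0.228) with TCDD in libraries labelled WT and rose by 0.61 in libraries labelled PkmΔDRE (edgeR adjusted p = 0.0156), the opposite of what the labels name. The difference between labels, 0.88, did not pass the test (edgeR adjusted p = 0.0504). The genotypes are given below as labels only. By correlation over 12233 genes, most libraries lay nearest to those of their own hour, 38 to those of a neighbouring hour, 2 to those 2 hours away in the series and 2 farther off. These last 2, both PkmΔDRE vehicle, were replicate 4 at 4 h, which was nearest to 72 h (r = 0.981, own hour 0.771), and replicate 4 at 96 h, which was nearest to 4 h (r = 0.962, own hour 0.754). They are called the 2 discordant libraries, and member values that rest on them are given with and without them. The averaged Pkm value for the PkmΔDRE label and its difference from WT include both. Defining hepatocyte markers were present, with Alb at 115060 CPM in WT vehicle at 2 h, but all 8 hepatocyte markers listed were lower at 120 h than at 2 h under both labels, and their summed level in WT vehicle went from 123502–167542 to 2989–16605 CPM. Over the same interval the summed macrophage markers went from 158–266 to 15.7–53.4 CPM and the summed cholangiocyte markers rose from 55.7–140.8 to 581–1069 CPM, led by Spp1, Krt19 and Krt7. Their part in the transporter changes was not tested. In bulk RNA, fewer cells of a type and less RNA per cell cannot be told apart.

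With vehicle alone, uptake transporters fell over the 5 days while the efflux members divided. In libraries labelled WT, 4 of 5 uptake members were lower at 120 h than at 2 h, against 24.5% of all genes tested, and 2 efflux members, Abcb11 and Abcb4, were lower too. Abcb1a was higher, as were 33.4% of all genes. The median of all genes tested rose by 0.21 (log2) in the same contrast. A gene was called when its adjusted p lay under 0.05 and its change reached 1.5-fold, with edgeR's quasi-likelihood test and Benjamini-Hochberg adjustment over all genes.

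**Figure D1:**
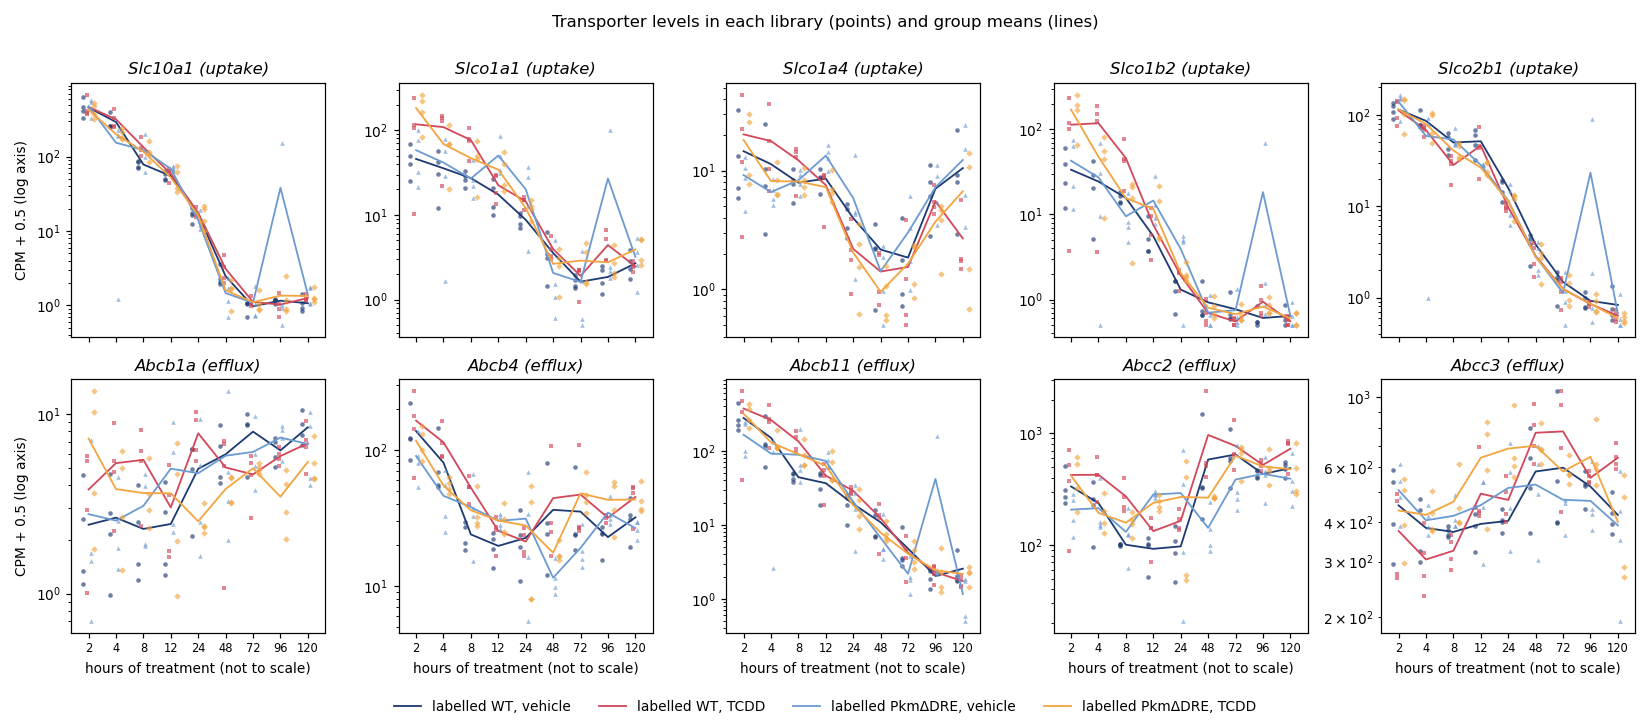
Level of each of the 10 transporters (log scale, CPM + 0.5) against hours of treatment; each point is 1 library, lines join the means of 4 libraries, colours separate label and treatment. Slc10a1, Slco1b2, Slco2b1 and Abcb11 drop by orders of magnitude, whereas Abcc2 and Abcc3 end near their starting levels.

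Slc10a1 encodes the sodium-taurocholate cotransporting polypeptide, the main carrier of conjugated bile acids from blood. In WT vehicle its 4 libraries held 329, 405, 627 and 463 CPM at 2 h, 19.8, 15.8, 12.0 and 17.2 CPM at 24 h, and 0.414, 0.340, 0.592 and 0.930 CPM at 120 h. No library of one hour overlapped another of these 3 hours. The change from 2 to 120 h was −9.77 (log2, SE 0.32, adjusted p = 1.79e-21), of which −4.93 had passed by 24 h. Per kilobase of exon, Slc10a1 led all 10 members at 2 h with 207 ± 57.7 CPM per kb (SD, n = 4), and at 120 h it stood at 0.259 ± 0.119 CPM per kb. By 72 h the mean had reached 0.473 CPM, and it lay between there and 0.658 CPM through 120 h.

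Among the organic anion transporting polypeptides, which exchange bile salts, thyroid hormones and drugs without sodium, Slco1b2 and Slco2b1 fell almost as far as Slc10a1. Slco1b2, the mouse counterpart of the human liver OATP1B carriers, went from 22.7, 11.5, 59.6 and 38.5 CPM at 2 h to 0.138, 0, 0.0740 and 0.353 CPM at 120 h, a change of −7.87 (SE 0.85, adjusted p = 1.94e-09). The later values are a handful of read pairs per library. Slco2b1 was steadier between libraries, with 88.7, 107.5, 133.7 and 123.4 CPM at 2 h and 0.0689, 0.850, 0.148 and 0.256 CPM at 120 h (change −8.62, SE 0.50, adjusted p = 1.51e-15). Slco1a1, abundant in male mouse liver, was 39.8, 24.5, 67.8 and 49.3 CPM at 2 h and 2.38, 1.23, 1.78 and 3.33 CPM at 120 h. Its groups did not overlap and its change of −4.52 (SE 0.47) was smaller than that of Slco1b2 by more than 3 log2 units.

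Slco1a4 took another course. This carrier of bile salts and cardiac glycosides started at 6.59, 5.39, 31.6 and 12.7 CPM, had a mean of 1.35 CPM at 72 h and stood at 8.62, 2.42, 7.59 and 21.3 CPM at 120 h. Its fall by 24 h was called (−2.10, SE 0.70, adjusted p = 0.0129) but not without vehicle replicate 3 of 2 h, whose 31.6 CPM was the highest value at 2 h (−1.38, adjusted p = 0.109). Neither the later rise (1.48, adjusted p = 0.0832) nor the change over the whole interval (−0.62, adjusted p = 0.429) passed the test. Without replicate 2 of 120 h, the lowest there, the later rise was called.

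Abcb11, the bile salt export pump of the canalicular membrane, was the efflux member that followed the uptake carriers. WT vehicle libraries held 261, 221, 441 and 191 CPM at 2 h, 22.6, 18.1, 24.6 and 9.46 CPM at 24 h, and 1.28, 4.12, 1.295 and 1.57 CPM at 120 h. The 3 hours did not overlap, and the change was −7.24 (SE 0.55, adjusted p = 8.74e-13). Abcb4, which moves phosphatidylcholine into bile, went from 120.6, 121.9, 223 and 83.9 CPM at 2 h to a mean of 23.5 ± 5.23 CPM (SD, n = 4) at 8 h, and held 30.6, 43.8, 18.9 and 32.8 CPM at 120 h. Its change was −2.75 to 24 h, 0.47 from 24 to 120 h (adjusted p = 0.404) and −2.28 over the whole interval (SE 0.45, adjusted p = 7.04e-05).

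Abcc2, the canalicular pump for bilirubin glucuronides and other conjugates, fell and came back. It held 270, 239, 511 and 313 CPM at 2 h, 101.5, 101.6, 98.4 and 98.2 CPM at 8 h, 147, 107.8, 84.8 and 46.5 CPM at 24 h, and 552, 394, 479 and 523 CPM at 120 h. The 24 h libraries lay below both other hours, with a change of −1.90 (SE 0.44, adjusted p = 6.13e-04) to 24 h and 2.29 (SE 0.45, adjusted p = 1.26e-04) from 24 to 120 h. It was the 1 member higher at 120 h than at 24 h, against 17% of all genes. The 48 h mean of 582 CPM rested on replicate 1, the library with Cyp1a1 against its label, which held 1503 CPM against 171 to 329 CPM in the other 3. Abcc3, a basolateral pump that returns conjugates to blood, had group means of 372 to 597 CPM over all 9 hours and a change of −0.27 (SE 0.23, adjusted p = 0.316) from 2 to 120 h. Abcb1a, a P-glycoprotein that exports hydrophobic drugs, was the lowest member per kilobase at 2 h, at 0.836, 2.10, 4.09 and 0.634 CPM, and held 10.0, 6.21, 7.11 and 8.33 CPM at 120 h. Those groups did not overlap and the rise was called (1.90, SE 0.56, adjusted p = 0.00392), although not once the percentage of uniquely mapped pairs outside genes entered the model (0.79, adjusted p = 0.348).

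Counted by interval, 5 uptake and 3 efflux members were lower at 24 h than at 2 h in libraries labelled WT (20% of all genes were lower), and 4 uptake members with Abcb11 were lower at 120 h than at 24 h (18.6% of all genes). The order of levels per kilobase differed between 2 and 120 h. At 2 h it ran from Slc10a1 through Abcc3 (79.4 ± 23.3 CPM per kb), Abcb11 (54.1 ± 21.8) and Abcc2 (39.1 ± 14.3) to Slco2b1, Abcb4, Slco1a1, Slco1b2, Slco1a4 and Abcb1a (0.350 ± 0.290). Neighbours in this order overlapped between libraries except Slc10a1 with Abcc3, Abcc2 with Slco2b1 and Slco1a4 with Abcb1a. At 120 h, Abcc3 (73.99 ± 9.97 CPM per kb) and Abcc2 (57.1 ± 8.05) led, Abcb4 stood at 3.36 ± 1.09, and the other 7 members were under 2 CPM per kb, from Slco1a4 (1.56 ± 1.25) and Abcb1a (1.45 ± 0.302) down to Slco2b1 (0.0555 ± 0.0595) and Slco1b2 (0.0286 ± 0.0308). Abcc3 and Abcc2 overlapped there, as did Abcb4 and Slco1a4.

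In libraries labelled PkmΔDRE the same 6 members were lower at 120 h than at 2 h, namely Slc10a1, Slco1a1, Slco1b2, Slco2b1, Abcb4 and Abcb11, 6 of 10 against 22.7% of all genes. Slc10a1 went from 442, 333, 548 and 578 CPM to 1.26, 1.197, 0.561 and 0.541 CPM (−9.25, SE 1.64, adjusted p = 4.65e-05), and the change of Slco2b1 was −9.95 (SE 1.73). Abcb11 went from 98.6, 232, 84.9 and 245 CPM to 0.0968, 1.34, 1.24 and 0 CPM, with no overlap. By 24 h, 5 members were lower (15.2% of all genes), namely Slc10a1, Slco1b2, Slco2b1, Abcb4 and Abcb11, and from 24 to 120 h, 4 were lower (14% of all genes). Abcc2 at 24 h was spread from 20.2 to 710 CPM and its changes of 0.38 and 0.37 in the 2 intervals were within their SEs of 0.59. All 36 vehicle libraries of the label shared 1 estimate of spread, so the 2 discordant libraries entered every error. Without them the SE for Slc10a1 over 120 h was 0.61 in place of 1.64 with nearly the same change (−9.26), all 15 calls stayed and the fall of Slco1a1 from 24 to 120 h was added (−2.88, adjusted p = 0.0106). Several calls of the 2 intervals lay near the threshold and were lost without 1 library, in fits that kept the 2 discordant libraries. With the 2 discordant libraries left out instead, the calls named next had edgeR adjusted p of 4.7e-07 to 0.00344. To 24 h, Slco1b2 was lost without any 1 of 7 libraries (adjusted p = 0.0564 to 0.0897), Abcb11 without any 1 of 5 (0.0542 to 0.0788) and Slco2b1 without replicate 2 or 3 of 24 h. From 24 to 120 h, Slc10a1 was lost without any 1 of the 4 libraries of 120 h (adjusted p = 0.0512 to 0.0828), and Slco1b2 was lost without any 1 of these or of replicates 1 to 3 of 24 h (0.0537 to 0.127).

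**Figure D2:**
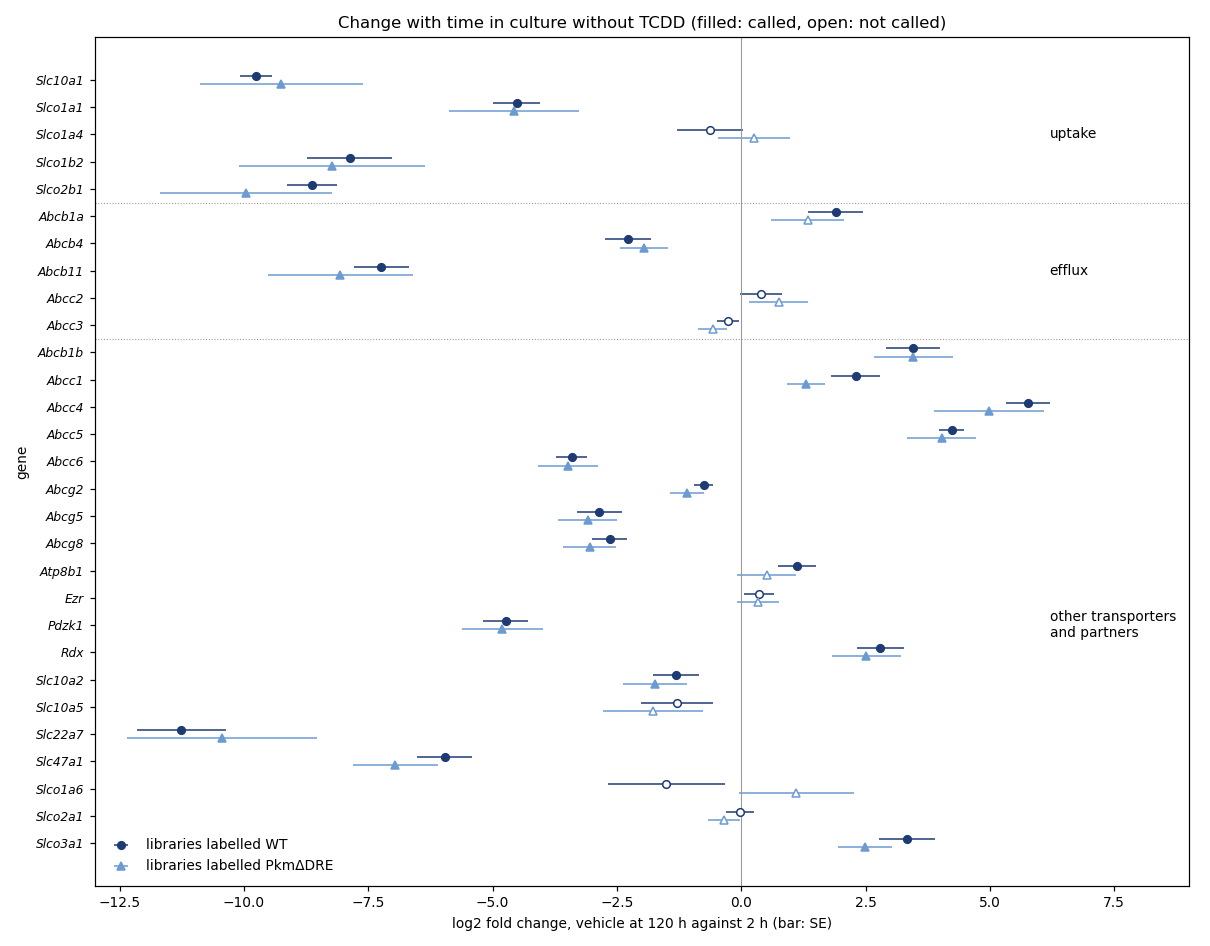
Change in vehicle from 2 h to 120 h (log2 fold change with SE bars) for the 10 members and 19 other transporters or partners, by label; filled points passed the test. Slc10a1, Slco1b2, Slco2b1 and Abcb11 lie below −7 under both labels, while Abcc2 and Abcc3 lie within 1 of zero.

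To set uptake against efflux within a library, the mean log2(CPM + 0.5) of the 5 efflux members was subtracted from that of the 5 uptake members. This is a description of chosen genes and carries no test. WT vehicle started at −0.76 ± 0.43 (SD, n = 4, 2 h), stood at −0.54 ± 0.06 after 8 h, was −2.51 ± 0.43 by 24 h, reached −5.40 ± 0.72 by 72 h and ended on −4.68 ± 0.44 (120 h). The summed CPM of the uptake members went from 662 to 13.2, whereas the efflux sum dipped from 1203 to 541.1 at 8 h and was 950 at 120 h. PkmΔDRE vehicle went from −0.29 ± 0.31 at 2 h to −4.11 ± 0.28 at 120 h. Its 4 h mean was −1.49 with the discordant library of that hour and −0.43 without it, and its 96 h mean was −3.69 with and −4.79 without the other. Summing the CPM before taking the ratio, in place of averaging logs, gave −6.42 in WT and −5.82 in PkmΔDRE vehicle at 120 h.

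**Figure D3:**
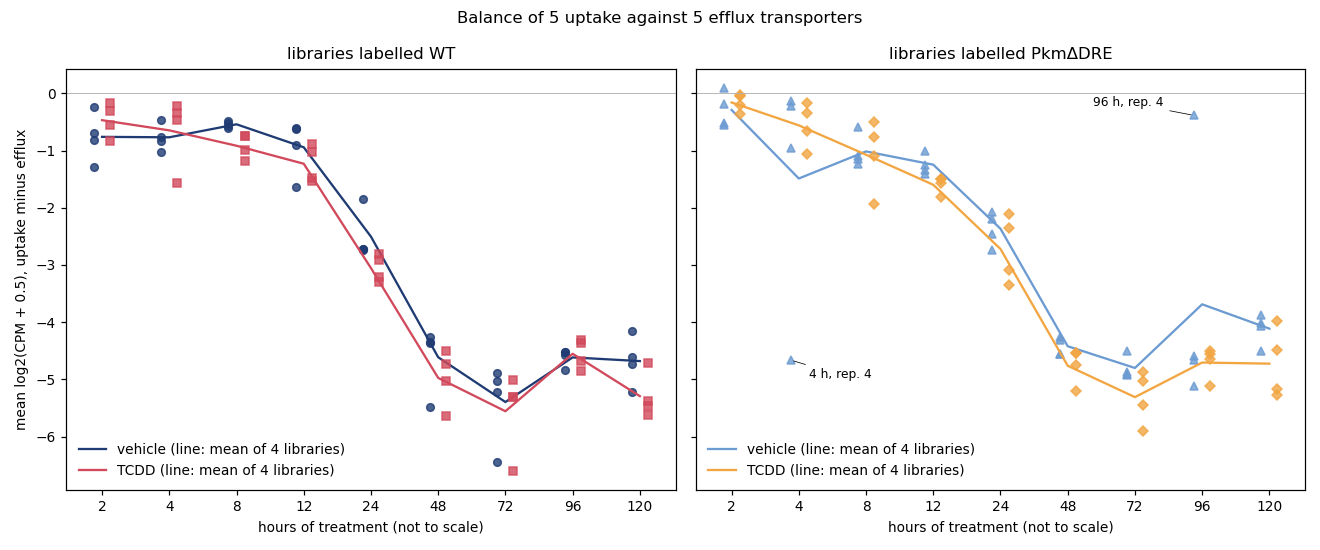
Mean log2(CPM + 0.5) of the uptake members minus that of the efflux members in each library, against hours of treatment, by label and treatment. The libraries leave the level near −1 between 12 and 48 h, and the 2 discordant libraries, marked rep. 4, sit apart from their hours.

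Most transporter calls with TCDD fell at 8 h in libraries labelled WT. Over the 9 hours, 10 of 84 member and hour pairs tested were called (5.98% of all gene and hour pairs), 9 higher and 1 lower, and 8 of the 10 fell at 8 h. That hour held changes in 37.4% of all genes (23.8% higher, 13.6% lower), so the share of members is to be read against a broad response. At the same hour 54.2% of all genes had an unadjusted p under 0.05 by edgeR. The share of all genes whose groups did not overlap was not counted, for this or any other comparison. Slc10a1, Slco1a1, Slco1b2, Abcb1a, Abcb4, Abcb11 and Abcc2 were higher and Slco2b1 was lower. Each change is given on the log2 scale against vehicle of the same hour.

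**Figure D4:**
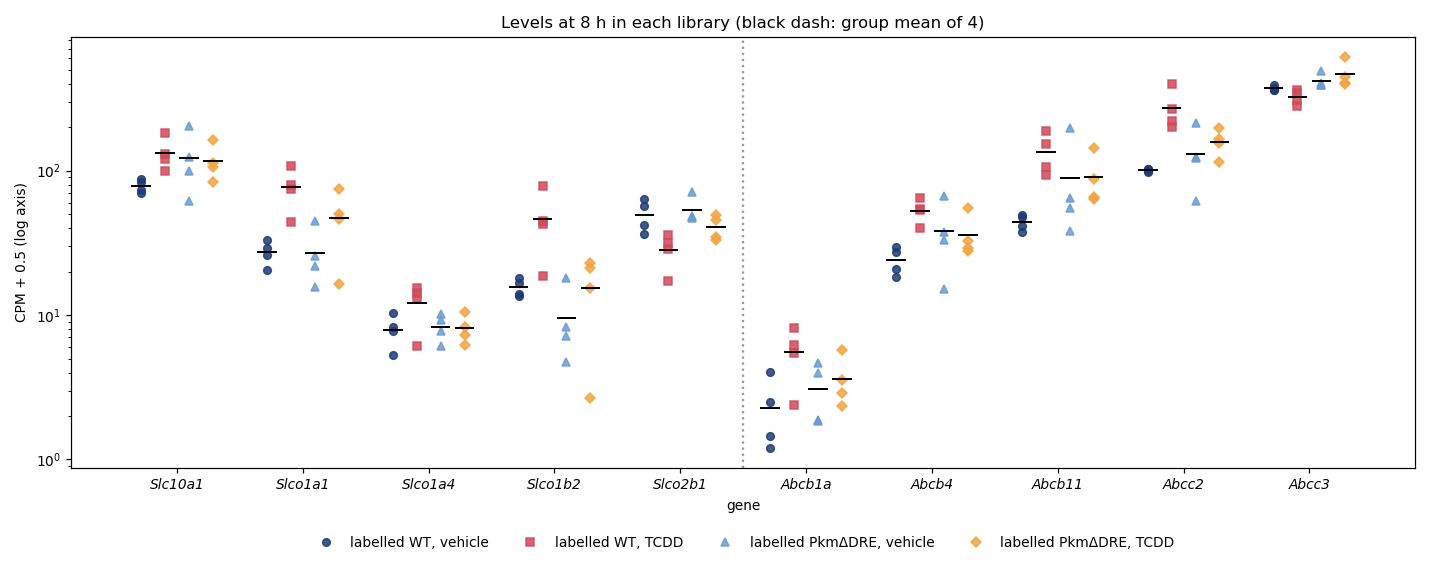
CPM (log scale) of each member at 8 h in the 4 groups, 1 point per library with the group mean. In libraries labelled WT, TCDD lies wholly above vehicle for 6 members and wholly below for Slco2b1. In libraries labelled PkmΔDRE the groups overlap. The share of all genes with separate groups was not counted.

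The pumps of the canalicular membrane were higher. Abcb11 was 37.1, 41.04, 47.6 and 49.1 CPM in WT vehicle and 92.7, 152, 187 and 106 CPM with TCDD (1.59, SE 0.21, adjusted p = 9.52e-04). Abcc2 was 101.5, 101.6, 98.4 and 98.2 CPM in vehicle and 200, 268, 399 and 219 CPM with TCDD (1.41, SE 0.19, adjusted p = 0.00105). Abcb4 was 20.3, 17.9, 26.7 and 29.1 CPM in vehicle and 39.4, 53.2, 63.8 and 53.4 CPM with TCDD (1.13, SE 0.20, adjusted p = 0.00158). For these 3 genes every TCDD library lay above every vehicle library. Abcb1a was 0.698, 0.956, 1.99 and 3.51 CPM against 1.87, 7.63, 5.69 and 4.99 CPM (1.46, SE 0.53, adjusted p = 0.0381). Its groups overlapped, and the call was lost without any 1 of vehicle replicates 1 to 3 or TCDD replicates 2 to 4. Abcc3 was 359 to 389 CPM in vehicle and 282 to 363 CPM with TCDD (−0.23, adjusted p = 0.142).

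The sequences before the start sites of Abcb11, Abcb4 and Abcc2 are shown because these genes moved together at 8 h and the study concerns a DRE. They are the 250 bases upstream of the RefSeq start on GRCm38.p6, read on the gene's strand from 5′ to 3′. Capitals mark the DRE core GCGTG on either strand (CACGC where it lies on the opposite one) in Abcb11 (chr2:69342617-69342866, minus strand) and Abcb4 (chr5:8893471-8893720, plus strand), and the antioxidant element core TGACNNNGC in Abcc2 (chr19:43782058-43782307, plus strand).
Abcb11: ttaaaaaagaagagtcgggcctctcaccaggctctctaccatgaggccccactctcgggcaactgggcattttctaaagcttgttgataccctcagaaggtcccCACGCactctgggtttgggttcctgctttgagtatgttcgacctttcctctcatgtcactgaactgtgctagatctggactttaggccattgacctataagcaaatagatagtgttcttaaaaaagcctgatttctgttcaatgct
Abcb4: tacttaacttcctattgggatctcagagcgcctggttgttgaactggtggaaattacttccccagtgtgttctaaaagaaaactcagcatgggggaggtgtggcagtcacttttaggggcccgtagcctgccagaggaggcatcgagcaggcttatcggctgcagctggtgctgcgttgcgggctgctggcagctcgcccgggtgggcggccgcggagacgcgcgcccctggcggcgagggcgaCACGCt
Abcc2: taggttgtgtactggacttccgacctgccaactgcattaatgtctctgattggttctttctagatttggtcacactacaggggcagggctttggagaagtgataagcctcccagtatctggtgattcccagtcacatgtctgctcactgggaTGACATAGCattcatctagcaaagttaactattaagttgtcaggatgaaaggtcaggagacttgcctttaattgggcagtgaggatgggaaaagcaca
Of 32851 promoters of this length, 28.2% hold GCGTG and 10.2% hold TGACNNNGC on either strand. Among the 9 members with a RefSeq entry, GCGTG was found only in Abcb11 and Abcb4 and TGACNNNGC only in Abcc2. The half-site AGGTCA of nuclear receptors, held by 14% of promoters, was found in Abcb11, Abcc2, Slco1b2, Slco1a1 and the second listed start of Slc10a1. A match is a run of letters in this window, and no binding was measured here.

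Of the uptake members at 8 h, 3 were higher with TCDD, 1 was lower and 1 was not called. Slc10a1 was 69.2, 72.7, 86.4 and 82.8 CPM in WT vehicle and 99.7, 130, 182 and 120.9 CPM with TCDD (0.74, SE 0.17, adjusted p = 0.00494), and fell under 1.5-fold (0.56) without TCDD replicate 3. Slco1b2 was 13.5, 13.2, 16.2 and 17.7 CPM in vehicle against 18.2, 77.5, 41.98 and 44.01 CPM (1.56, SE 0.33, adjusted p = 0.00313). Slco1a1 was 28.6, 20.2, 25.4 and 32.6 CPM against 43.3, 107.1, 79.4 and 74.3 CPM (1.48, SE 0.25, adjusted p = 0.00140). TCDD replicate 1 was the lowest TCDD library for each of the 3, yet still above every vehicle library. Slco2b1 went the other way, at 41.4, 36.2, 56.4 and 62.9 CPM in vehicle and 30.9, 28.2, 16.6 and 35.2 CPM with TCDD (−0.86, SE 0.24, adjusted p = 0.0118), without overlap. Slco1a4 was 4.81 to 9.81 CPM against 5.61 to 14.8 CPM and was not called (0.63, adjusted p = 0.116).

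Other measures moved with treatment at this hour. The share of uniquely mapped pairs that fell on no gene was 4.89% to 6.00% in the WT vehicle libraries and 8.36% to 21.95% in the TCDD libraries, highest in TCDD replicate 1. With this share as a covariate all 8 calls remained and Slco1a4 was added (1.25). The share did not overlap between treatments, and TCDD replicate 1 stood far from the other TCDD libraries (8.36% to 10.7%). This fit therefore could not tell the share from TCDD. Of the hepatocyte markers, Apoa1, Asgr1 and Ttr were lower and Cps1 higher with TCDD. Summed macrophage markers were 152 to 196 CPM in vehicle and 62.3 to 115.6 CPM with TCDD, with 4 of 6 lower, and the summed stellate markers were 13.6 to 16.5 against 45 to 93.8 CPM, almost all of it Reln (10.99 against 58.1 CPM), while Acta2, Des and Lrat had group means under 0.3 CPM and no library above 0.7345 CPM. The part of these shifts in the transporter changes was not tested.

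After 8 h, 2 further pairs were called in libraries labelled WT. Slco1a1 at 96 h was 1.08, 1.72, 1.96 and 0.652 CPM in vehicle and 6.17, 2.45, 2.37 and 4.65 CPM with TCDD (1.59, SE 0.41, adjusted p = 0.0140), in an hour with 15.1% of all genes called. TCDD replicate 1, which held the 6.17 CPM, had 63.3% of its strand-specific counts on 1 strand, against at most 51.5% in any other library. Its unmapped share was 11.4%, against 3.91% to 6.61% in the other TCDD libraries of that hour. The groups did not overlap, but in the covariate fit (shares of pairs on no gene with means of 7.99% in vehicle and 10.3% with TCDD) the change was 0.86 (adjusted p = 0.318). Without vehicle replicate 3, whose Cyp1a1 went against its label, Slco1a1 was still called and Abcb4 was called too (0.63, SE 0.15, adjusted p = 0.0131). Abcc3 at 120 h was 367, 393, 499 and 427 CPM in vehicle and 592, 614, 717 and 644 CPM with TCDD (0.61, SE 0.12, adjusted p = 0.0380), where 1.46% of all genes were called. The call on Abcc3 was lost without vehicle replicate 1 or 4 or without any 1 of the TCDD libraries, and it sat just above the 1.5-fold threshold, which the covariate fit missed (0.58). At 24 h, Slco1a1 (0.83, adjusted p = 0.170) and Abcb11 (0.68, adjusted p = 0.360) lay wholly above vehicle and Slco2b1 (−0.64, adjusted p = 0.319) wholly below, none of them called. Slco1a4 at 120 h had a value of −2.21 (adjusted p = 0.181).

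Before 8 h no member was called, although the organic anion carriers had wide differences. At 2 and 4 h no gene was called at all under either label (0 of 12097 and 0 of 12434 genes tested under the WT label). Cyp1a1 itself was not called at 4 h under the WT label (5.78, edgeR adjusted p = 0.286). The lack of calls therefore does not show when a response began. At 2 h Slco1b2 was 22.7, 11.5, 59.6 and 38.5 CPM in WT vehicle and 99.7, 232, 118.4 and 3.17 CPM with TCDD (1.78, unadjusted p = 0.0800 by edgeR, adjusted p = 1.00). The lowest of these values belonged to TCDD replicate 4, which also held 9.67 CPM of Slco1a1 against 105.2 to 240 CPM in the other 3 and the least Cyp1a1 of its group. In libraries labelled PkmΔDRE at 2 h, Slco1b2 was 11.1, 74.2, 21.3 and 62.7 CPM in vehicle and 64.7, 256, 191 and 170 CPM with TCDD (2.08, adjusted p = 0.280). Without vehicle replicate 2, the highest of its group, Slco1b2 (2.43), Slco1a1 (2.08) and Abcb1a (3.09) were called there. Leaving out the highest vehicle library of Slco1b2 by itself raises the value for Slco1b2. No share of all genes called in that fit is given, and with all libraries 0 of 12132 genes were called. At 4 h in libraries labelled WT the values for Slco1a1 and Slco1b2 were 1.60 (adjusted p = 0.286) and 2.27 (adjusted p = 0.287).

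**Figure D5:**
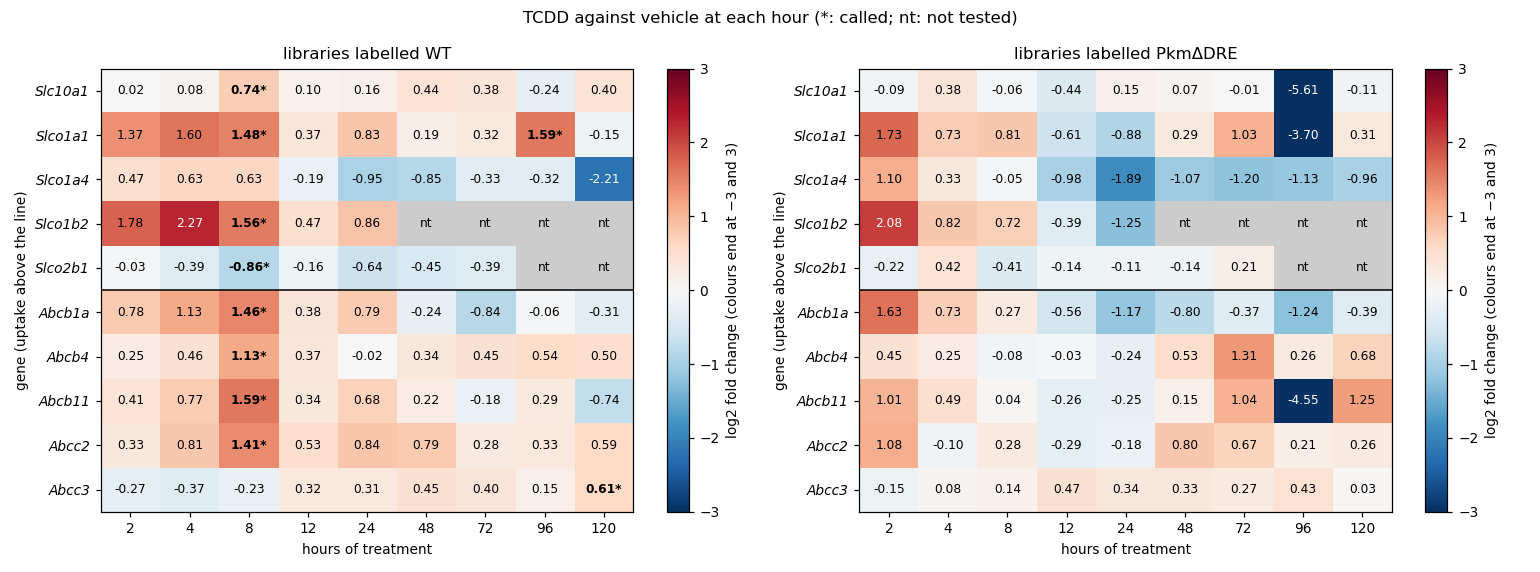
Log2 fold change of TCDD against vehicle (colour) for each member and hour of treatment, by label; asterisks mark calls and nt marks pairs not tested for low counts. The asterisks cluster at 8 h under the WT label; the dark cells at 96 h under the PkmΔDRE label rest on the discordant vehicle library of that hour.

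Under the PkmΔDRE label no member was called with TCDD at any hour, 0 of 84 pairs with edgeR (0.281% of all gene and hour pairs). By edgeR 12 pairs had an unadjusted p under 0.05, as had 1.29% to 14.2% of all genes depending on the hour. DESeq2 called 3 pairs, for which no share of all gene and hour pairs is given. At 8 h Abcb11 was 64.7, 197, 54.7 and 37.8 CPM in vehicle and 63.4, 144.01, 64.7 and 87.7 CPM with TCDD (0.04, SE 0.47). Abcc2 was 122.5, 214, 124.02 and 61.5 CPM against 113.7, 197, 154 and 166 CPM (0.28, SE 0.33), and Slc10a1 was 123.3, 203, 98.9 and 61.1 CPM against 83.5, 162, 105.5 and 113.2 CPM (−0.06, SE 0.34). The groups overlapped for all 10 members at this hour. Slco2b1 had the direction seen under the WT label (−0.41, SE 0.20) and was not called. Abcb4 at 72 h was 28.2, 17.6, 15.2 and 13.5 CPM in vehicle against 68.99, 41.2, 46.6 and 33.9 CPM (1.31, SE 0.29, adjusted p = 0.0610), without overlap. At 96 h the discordant vehicle library set the values, since Slc10a1 was 0.503, 0.0437, 0.431 and 150 CPM in vehicle and 0.400, 0.684, 2.00 and 0.337 CPM with TCDD. With that library the value for Slc10a1 was −5.61 and without it 1.35, for Slco1a1 −3.70 and 0.45, and for Abcb11 −4.55 and 0.08, and none was called either way.

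A response called under one label and not under the other does not show that the labels differ, so the difference itself was tested. No member was called at any hour, 0 of 87 pairs with edgeR and 0 with DESeq2 (0.0016% of all gene and hour pairs), with 13 at an unadjusted p under 0.05. The values at 8 h were −1.67 for Abcb11 (SE 0.57), −1.32 for Abcb4 (SE 0.48), −1.25 for Abcc2 (SE 0.41) and −0.93 for Slc10a1 (SE 0.41), each a lower value under the PkmΔDRE label, with unadjusted p of 0.0082, 0.0130, 0.0069 and 0.0370 and adjusted p of 0.292 to 0.303 in edgeR. With no filter on low counts there were 3 calls at this hour, on Abcb11, Abcb4 and Abcc2. No share of all genes called in that fit is given beside them. For Slco2b1 the difference was 0.34 (SE 0.32).

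Vehicle levels were also compared between labels, on the same vehicle libraries as the contrasts above. Of 85 pairs, 21 had an unadjusted p under 0.05 by edgeR (3.1% to 25.3% of all genes depending on the hour). Only 1 was called (0.407% of all gene and hour pairs). It was Abcc2 at 12 h, with 114.3, 102.02, 99.2 and 51.5 CPM in libraries labelled WT and 283, 262, 306 and 279 CPM in those labelled PkmΔDRE (1.66, SE 0.23, adjusted p = 0.0127), where 3.68% of all genes were called. The groups were far apart, but the call was lost without WT replicate 2 or PkmΔDRE replicate 3 or 4 (adjusted p = 0.0562 to 0.0746). At the same hour Slco1a1 (1.61, adjusted p = 0.0552) and Slco2b1 (−0.84, adjusted p = 0.0628) did not overlap between labels. Slco2b1 was 46.1, 59.1, 31.1 and 66.8 CPM under the WT label and 27.5, 27.2, 27.7 and 28.2 CPM under the other. At 96 h the value for Slc10a1 was 5.98 with the discordant library and −1.02 without it.

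Averaged over the 9 hours, TCDD raised Slco1a1 by 0.79 (log2, SE 0.17, adjusted p = 2.98e-04) and Abcc2 by 0.61 (SE 0.15, adjusted p = 0.00207) in libraries labelled WT, 2 of 10 members against 7.79% of all genes called higher. Without the 4 libraries whose Cyp1a1 went against the label both were still called, at 0.85 and 0.79. Slco2b1 (−0.52, adjusted p = 0.00439) and Abcb4 (0.40, adjusted p = 0.0345) passed the p threshold without reaching 1.5-fold. Abcc2 dropped under 1.5-fold, to 0.50–0.58, without any 1 of 5 libraries, namely vehicle replicates 3 and 4 of 48 h, TCDD replicate 3 of 2 h, TCDD replicate 3 of 72 h and TCDD replicate 1 of 48 h, which held 2410 CPM of it. In libraries labelled PkmΔDRE none of the 10 was called by edgeR or DESeq2 (2.12% of all genes with edgeR). With all libraries 5 had an unadjusted p under 0.05 by edgeR, against 14.4% of all genes. The difference between labels was called for none by either tool (0.45% of all genes with edgeR), with 2 at an unadjusted p under 0.05 (13.3% of all genes). With and without the 2 discordant libraries, the PkmΔDRE value was −0.65 and 0.08 for Slc10a1 and −0.82 and −0.26 for Slco2b1. For Slco1a4 it was −0.67 and −0.63. The difference between labels for Slc10a1 was −0.82 and −0.13. For Slco1a1 the PkmΔDRE value was −0.04 with all libraries and 0.38 without the 2 discordant libraries, and the difference from WT was −0.83 (adjusted p = 0.275) and −0.46.

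Other hepatocyte transporters and their partners, 22 in a list, moved in both directions with time. Of 19 tested in WT vehicle, 8 were lower at 120 h than at 2 h (24.5% of all genes) and 7 were higher (33.4% of all genes). Lower were the organic anion carrier Slc22a7 (−11.26, SE 0.89), the canalicular cation exchanger Slc47a1 (−5.96, SE 0.56), the sterol exporters Abcg5 and Abcg8, Abcg2, Abcc6, Slc10a2 and the scaffold Pdzk1. Higher were the basolateral pumps Abcc4 (5.76, SE 0.44), Abcc5 (4.23, SE 0.25) and Abcc1 (2.30, SE 0.49), the second P-glycoprotein Abcb1b (3.46, SE 0.55), Slco3a1, Atp8b1 and the membrane linker Rdx. In PkmΔDRE vehicle 8 were lower (22.7% of all genes) and 6 higher (26.8% of all genes), the same genes except Atp8b1 (0.51, adjusted p = 0.483). Abcc4 rose from 5.10 to 312 CPM under the WT label and from 6.70 to 244 CPM under the other. With TCDD, averaged over the hours, Atp8b1, a phospholipid flippase of the canalicular membrane, was higher under both labels (1.06 and 0.74, edgeR adjusted p = 4.34e-08 and 0.00283). Slc10a5 was higher under the WT label (0.65, adjusted p = 0.0129) and Slc10a2 lower under the PkmΔDRE label (−0.81, adjusted p = 0.00210). Of all genes, 7.79% were called higher under the WT label, and 1.06% higher and 1.06% lower under the other. The PkmΔDRE values include the 2 discordant libraries and are not given without them.

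Nuclear receptors and other regulators of these genes were listed in the same way, 8 in all. From 2 to 120 h in WT vehicle, where 57.9% of all genes were called, 5 were lower, led by Nr1i3, the constitutive androstane receptor (−8.37, SE 1.32), then Nr0b2 (−2.13), Hnf4a (−1.71), Nr1i2 (−1.45) and the bile acid receptor Nr1h4 (−1.22), and Ahr (1.12) and Nfe2l2 (1.51), which drives antioxidant genes, were higher. The same 7 were called in PkmΔDRE vehicle in the same directions, where 49.4% of all genes were called. In the averaged TCDD effect, Nfe2l2 had values of 0.68 under the WT label and 0.66 under the PkmΔDRE label, and Nr1i3 of 1.75 and 2.02. Nr1h4 had 0.11 and 0.10, and neither was called. Of all genes, 7.79% were called higher under the WT label and 1.06% under the PkmΔDRE label. The PkmΔDRE values include the 2 discordant libraries and are not given without them.

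Across the 36 group means of log2(CPM + 0.5), 11432 genes were ranked by their correlation with each member, as a description with points that share culture time and libraries. Nearest to Slc10a1 were Gabbr2 (r = 0.993), Lifr (0.993) and Rdh16 (0.992), and nearest to Slco2b1 was Mup22 (0.994). Slco1b2 was nearest to Cfhr3 (0.988), Abcb11 to Ugt2a3 and Otc (0.988 each), Slco1a1 to Sult2a8 (0.981), Abcb4 to Acadm (0.952) and Slco1a4 to Slc2a2 (0.915). The other members had weaker matches, Abcc2 with Akr1c14 (0.910), Abcb1a with Tpp2 (0.904) and Abcc3 with Pir (0.847), Prdx1 (0.842) and Gsta2 (0.842). Among the members, Slc10a1 ran with Slco2b1 (0.979) and Abcb11 (0.972) over group means. After removing group means, the closest pairs over all libraries were Slco1a1 with Slco1b2 (0.866) and Abcb4 with Abcc2 (0.790).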

How the data were processed

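RNA-Seq libraries of cultured mouse hepatocytes were analysed as 36 groups of 4, grouped by the genotype, treatment and time labels. The authors trimmed reads with Trimmomatic 0.39, checked them with FastQC 0.11.3, aligned them to GRCm39 with STAR 2.7 (versions as in the submitters' processing notes), and deposited raw unstranded and stranded read-pair counts per gene. The unstranded count was used. Lines that name no gene (16.8% to 48.0% of pairs) were left out. Symbols came from GENCODE M21 (GRCm38) for 52083 of 55359 genes, exon lengths from the same annotation and promoters from RefSeq (9 of 10 members). Counts were scaled by TMM, filtered with filterByExpr (minimum count 10, total 15) and tested with edgeR 4.0.16 under R 4.3.3, in 1 fit per label and hour for TCDD and per hour for the interaction, and in 1 fit of all hours for time and averaged effects, with p adjusted over all genes. CPM used TMM sizes over all libraries. On simulated data the quasi-likelihood test at 8 h recovered 50.5% of log2 changes of 1 for TCDD under the WT label. It recovered 27.8% under the PkmΔDRE label and 6.12% for the difference between labels. For log2 changes of 2 the shares were 83.8%, 83.3% and 59.2%. In these simulations counts were drawn independently for each gene and few genes were changed. For TCDD under the WT label, 97 and 99 of 12124 genes carried the 2 sizes of change. In the real data 37.4% of all genes were called there. The recovered shares therefore do not describe the real contrasts or rank them. A missing call does not show that a change was absent. Figures used matplotlib 3.10.9.

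One transporter of the list of other transporters is not reported here. Members and lists were chosen with earlier results of these data known. All members are named, as are listed transporters and regulators called in a time or averaged contrast, and the genes most correlated with a member. Alternatives were RLE scaling, DESeq2 1.42.0, no filter, no fold threshold, a covariate, wider or narrower fits and leaving out libraries. No read-level quality measure beyond mapping shares was used.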

Additional observations from a re-analysis of the deposited data

Results flagged for a closer look

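In 32 of 317 member levels by group, 1 of 4 libraries stood apart by Dixon's test. Its cutoff flags about 1 in 20 levels when values are independent and normally distributed. The CPM values were not checked for that, and the members share libraries, so the 32 cannot be read against that rate. The 32 came from 23 libraries, and 6 of them from the 2 discordant libraries. Each value is in CPM and is followed by the nearest of the other 3.

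Of the discordant libraries, replicate 4 of 96 h was high for 5 members, with Slc10a1 at 150 (0.503), Slco1a1 at 100.8 (1.90), Slco1b2 at 69.6 (1.05), Slco2b1 at 89.4 (1.37) and Abcb11 at 160 (1.97). Replicate 4 of 4 h was high for Abcc2 at 398 (160).

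In WT vehicle, replicate 3 of 4 h held 395 of Slc10a1 (260), replicate 1 of 4 h 112.5 of Slco2b1 (77.3), replicate 3 of 72 h 74.5 of Abcb4 (23.6) and 8.95 of Abcb11 (3.12), replicate 2 of 120 h 4.12 of Abcb11 (1.57) and replicate 1 of 48 h 1503 of Abcc2 (329). Replicate 1 of 48 h was also the vehicle library with the Cyp1a1 level of TCDD libraries.

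In WT with TCDD, replicate 3 of 2 h held 680 of Slc10a1 (411), replicate 4 of 4 h only 21.4 of Slco1a1 (127.5), replicate 3 of 72 h only 0.428 of Slco1a1 (1.69) but 108.7 of Abcb4 (26.8), and replicate 1 of 48 h 106 of Abcb4 (28.7) with 2410 of Abcc2 (545). Replicate 2 of 12 h held 2.83 of Slco1a4 (8.18) and 692 of Abcc3 (434), and replicate 3 of 120 h held 5.21 of Slco1a4 (1.301) and 433 of Abcc2 (804).

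In PkmΔDRE vehicle, replicate 4 of 24 h had 0 of Slco1b2 (4.25), replicate 4 of 8 h 70.5 of Slco2b1 (48.4), replicate 2 of 2 h 6.67 of Abcb1a (1.17), replicate 2 of 8 h 197 of Abcb11 (64.7), replicate 2 of 48 h 13.4 of Abcb11 (4.22) and replicate 1 of 72 h 779 of Abcc2 (299). In PkmΔDRE with TCDD, replicate 2 of 8 h held 54.4 of Abcb4 (31.9), replicate 3 of 48 h 21.4 of Abcb4 (16.1), replicate 4 of 4 h 189 of Abcb11 (113.5) and replicate 1 of 48 h 274 of Abcc2 (262).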

How the results depend on the processing

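Direction was the same in every alternative run on a called member, and no call turned. DESeq2 kept 49 of 49 single-member calls, RLE scaling 48 of 49, no filter and the covariate (share of pairs on no gene) 43 of 49 each, 1 fit of all libraries 5 of 11, only the 8 libraries of both hours 34 of 36 and the fits without 1 library 473 of 520. Fits without the 2 discordant libraries, chosen after seeing the data, kept 15 of 15, and the averaged effect without the 4 libraries whose Cyp1a1 went against the label kept 2 of 2. One fit of all libraries gave 5 in place of 10 calls for TCDD under the WT label, and 5 each, in place of 0, 0 and 1, for TCDD under the PkmΔDRE label, the difference in response and the label difference in vehicle, those 5 being at 96 h where a discordant library sits. For TCDD under the PkmΔDRE label, DESeq2 gave 3 calls, no filter 4 and the covariate 2. No filter gave 3 calls for the difference in response. For the label difference in vehicle, DESeq2 gave 6, no filter 5 and the covariate 5. In PkmΔDRE vehicle, 5 calls from 2 to 24 h became 2 with no filter and 3 with the covariate, and 4 from 24 to 120 h became 2 with no filter. With no fold threshold 4 members passed for the averaged effect under the WT label. Leaving out 1 library gave 0 to 3 calls for TCDD under the PkmΔDRE label, 0 to 1 for the difference in response, 0 to 4 for the label difference, 2 to 5 and 2 to 4 for PkmΔDRE vehicle to 24 h and from 24 to 120 h, and 1 to 2 for the averaged effect under the WT label. It gave 8 to 11 for TCDD under the WT label, and it was not run for the difference between labels in the averaged effect. No share of all genes called stands beside the counts of these alternative fits. The uptake minus efflux value at 120 h was −4.68 in WT vehicle, −6.42 from summed CPM and −5.37 with a pseudocount of 0.1, and −4.11, −5.82 and −4.72 in PkmΔDRE vehicle. The cause of these changes, including the calls at 96 h, was not tested. No paired analysis was possible because the labels give no replicate number. Deposition order was not used to pair, although unmapped pairs in WT vehicle at 2 to 8 h were 13.4% to 14.5% in replicates 1 and 2 and 8.07% to 9.62% in replicates 3 and 4. Members under about 1 CPM rest on few read pairs, which limits the precision of their late values.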

Other observations

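Within groups, the correlation of member levels with the share of uniquely mapped pairs that fell on no gene ranged from −0.494 for Abcc3 to 0.468 for Abcb1a, as a description over all libraries with group means removed. It was −0.323 for Slco2b1, 0.266 for Slco1a1 (0.419 without the 2 discordant libraries) and 0.221 for Abcc2. The other 5 lay between −0.192 (Slc10a1) and 0.151 (Slco1b2). No cause was tested.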
